A study of Homo sapiens with 15 samples.

Results

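In all, 10 genes of WNT signalling and the SOX family were followed in cultured HCC1954 cells: the secreted WNT inhibitor DKK1, the ligand WNT5A, the coreceptors LRP5 and LRP6, the nuclear factors TCF7L2 and LEF1, the feedback inhibitor AXIN2, and the transcription factors SOX2, SOX4 and SOX9. The members were chosen by gene name, and each of the 10 names matched 1 row among the 19845 rows of the deposited tables. HCC1954 is an established HER2-positive human breast cancer line, and all 15 RNA libraries derive from it. The labels name 3 brain-tropic groups, which are metachronous metastatic cells (M-BM, 4 libraries), latent or residual cells (Lat, 4) and synchronous metastatic cells (S-BM, 4), and the parental cells (Pa, 3). The brain-tropic groups together are called brain-derived. No allele, drug or host is given in the labels for any group, and all cells were grown in the same named medium before RNA extraction. The design asks how expression differs between these states. A single line underlies every group. Nothing in the labels tells if replicate libraries came from different cultures or animals, so the p-values reflect only library-to-library spread, which may be technical.

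WNT ligands bind Frizzled receptors together with LRP5 or LRP6, which stops a complex built on AXIN proteins, APC and GSK3 from destroying beta-catenin. Beta-catenin then works with TCF and LEF factors on target genes, AXIN2 among them, while DKK1 binds LRP5 and LRP6 and blocks the ligand signal. SOX factors bind DNA through an HMG box; SOX2 and SOX9 are known from stem and progenitor cells, SOX4 from developing and cancer epithelium. In latency-competent breast and lung cancer cells, work with this line among others described SOX2, SOX9 and DKK1-mediated WNT inhibition as features of a slowly cycling state.

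The promoters of 3 members that stood lower in M-BM and Lat than in S-BM, DKK1, SOX2 and SOX4, are shown. They are not all the lower members, since LRP5 and AXIN2 also stood lower in both groups, as set out further on. Each promoter shown is the RefSeq window of 300 bases on GRCh38.p14, from 250 bases before the start site to 50 bases from it. It is read 5′ to 3′ on the gene's own strand, which is the plus strand for all 3 promoters shown. The windows are chr10:52314031-52314330 for DKK1, chr3:181711675-181711974 for SOX2 and chr6:21593501-21593800 for SOX4. Capitals mark a match to the TCF/LEF motifs CTTTGAT or CTTTGAA or to the SOX motif CATTGTT, searched on both strands.
DKK1 promoter: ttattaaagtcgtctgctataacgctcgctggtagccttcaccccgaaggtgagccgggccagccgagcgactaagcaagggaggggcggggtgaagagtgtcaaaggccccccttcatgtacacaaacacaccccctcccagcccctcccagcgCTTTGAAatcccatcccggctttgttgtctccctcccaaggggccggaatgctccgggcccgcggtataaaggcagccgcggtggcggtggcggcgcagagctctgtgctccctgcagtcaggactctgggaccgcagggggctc
SOX2 promoter: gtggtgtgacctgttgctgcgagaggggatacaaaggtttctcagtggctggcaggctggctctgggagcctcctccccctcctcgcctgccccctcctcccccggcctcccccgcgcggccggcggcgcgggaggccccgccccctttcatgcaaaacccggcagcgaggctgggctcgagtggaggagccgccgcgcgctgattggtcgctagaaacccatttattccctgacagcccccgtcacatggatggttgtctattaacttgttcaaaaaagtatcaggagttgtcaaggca
SOX4 promoter: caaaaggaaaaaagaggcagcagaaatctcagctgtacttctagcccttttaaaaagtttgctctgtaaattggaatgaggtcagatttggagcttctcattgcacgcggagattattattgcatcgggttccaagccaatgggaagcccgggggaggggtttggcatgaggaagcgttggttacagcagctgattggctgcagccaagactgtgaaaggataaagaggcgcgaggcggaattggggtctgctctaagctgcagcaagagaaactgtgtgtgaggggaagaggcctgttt
The DKK1 window held 1 match, CTTTGAA, whose first base lies 95 bases before the start site, and the other 2 windows held none. Other forms of the TCF/LEF and SOX motifs were not searched and are not marked. Of 35116 RefSeq promoter windows of this length, 6.86% held CTTTGAT or CTTTGAA, and 3.33% held CATTGTT. The SOX2 and DKK1 windows had 63.3% and 63.7% G and C, the SOX4 window 49.3%, against a median of 58.7% over all windows. Promoter sequences of 7 of the 10 members were matched in all, and among the other 4 the TCF7L2 window held 1 CATTGTT. The windows of WNT5A, LRP5 and LEF1 lie at start sites 17957, 14179 and 2631 bases from the outermost start of the gene, so they do not stand for that start. These matches describe letters and not bound sites.

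The values are normalized counts, reads per gene that the authors scaled to similar library sums of 963150 to 1026297. Recovering the reads gave 13253870 to 21843860 reads per library, and 3 reads correspond to a value of 0.136 to 0.225; such floors cover counting error only. M-BM, Lat and S-BM share a table and were tested together with limma on log2(value + 1), for 9646 genes that reached a value of 10 in 4 or more of the 12 libraries. Pa was normalized in a table of its own, so Pa levels are set beside the others with no test; over 8021 well-detected genes the median ratio of Pa to the 12 other libraries was 0.974. All 4 astrocyte markers in the tables stayed below 1 in all 15 libraries, and of the lists for neurons, oligodendrocytes, leukocytes, endothelium and fibroblasts 1 of 3, 2 of 4, 4 of 5, 1 of 4 and 2 of 3 genes did. The highest genes of these lists were TUBB3 (26.25 to 63.7) for neurons and MBP (75.55 to 150.5) for oligodendrocytes. For leukocytes, endothelium and fibroblasts they were CSF1R (up to 14.85), CDH5 (up to 17.7) and COL1A1 (up to 20.7). All 10 mammary epithelial and HER2 markers were in the tables, and the lowest level of any of them was 5.81, for KRT19 (up to 19.9), next to 17.6 for TFAP2A (up to 47.8); KRT7, KRT8 and KRT18 were at 424.7 or more in every library. S-BM 3 and S-BM 4 stood apart within S-BM, with the HER2 gene ERBB2 at 353 and 367, against 4109 and 4642 in S-BM 1 and S-BM 2. Their recovered reads differed by 3.4 times the sampling noise (chi-square per gene) and those of Lat 1 and Lat 2 by 3.88 times, while other pairs in these groups differed by 8.82 to 67.7 times. In bulk RNA, fewer cells expressing a gene and less RNA per cell cannot be told apart.

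SOX4 fell and SOX9 rose in both M-BM and Lat relative to S-BM, and SOX2, below the filter, was lower in every M-BM and Lat library than in any S-BM library. DKK1 and LRP5 fell in both, LRP6 rose slightly, and TCF7L2 did not pass the test. Of the 10 members, 6 reached the filter and 5 of these 6 passed an adjusted p of 0.05 in each of the comparisons with S-BM, 2 higher and 3 lower. Over all genes tested, 52.7% were called in M-BM against S-BM (26.9% higher, 25.8% lower) and 59.7% in Lat against S-BM (30.2% higher, 29.4% lower). Calls were thus common over all genes, and 6 genes are too few to set the members' share apart from that background. Of the 6, 1 lay wholly above S-BM and 2 wholly below it in M-BM, where 23.5% and 22.8% of all genes tested did. In Lat 1 lay above and 3 below, where 26.9% and 27.6% of genes did. Both comparisons use the same S-BM libraries, so the 2 sets of values are not independent of each other.

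**Figure D1:**
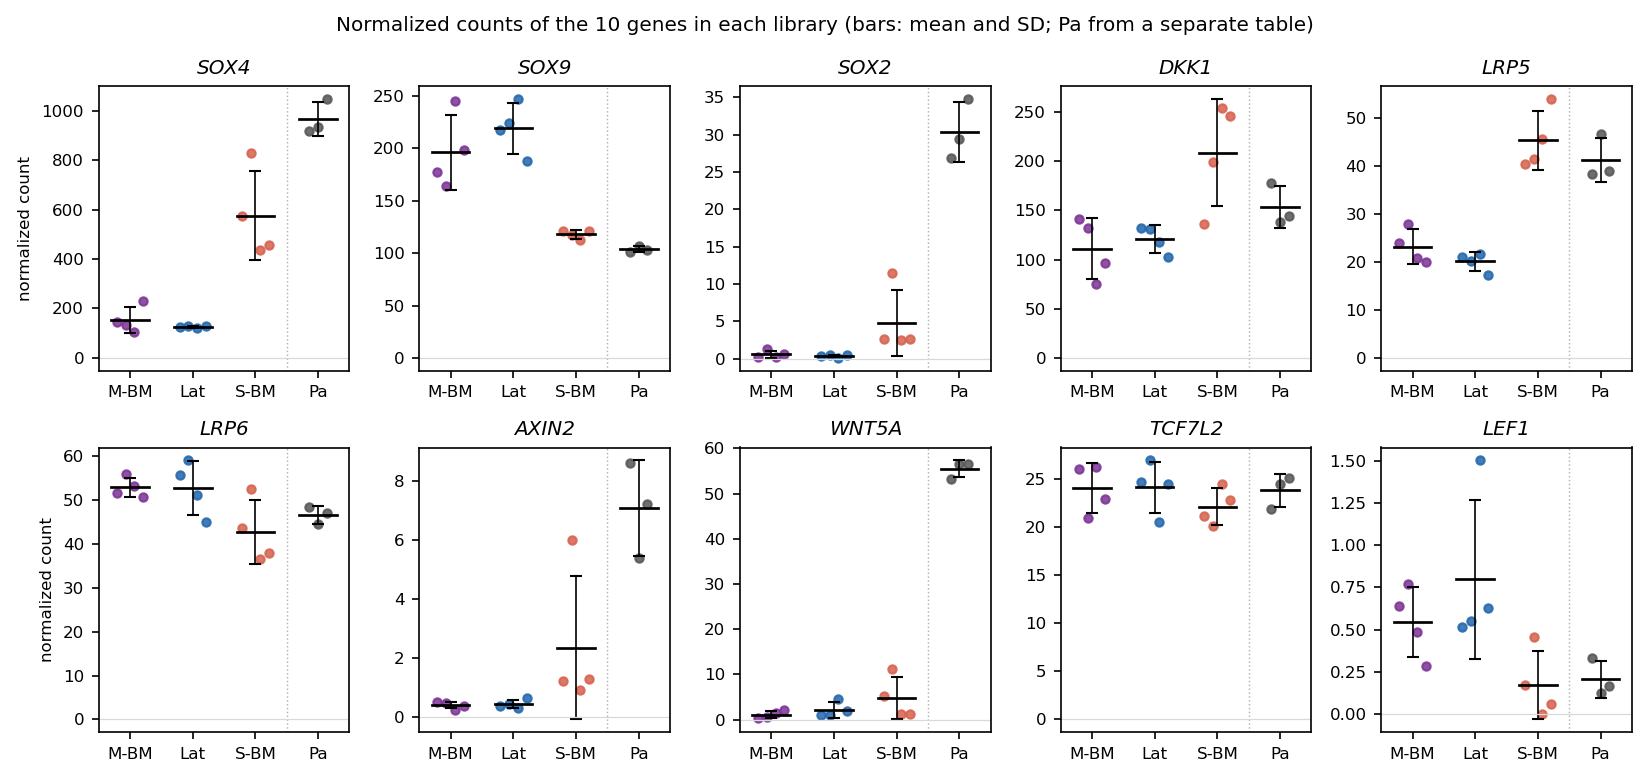
Normalized count (linear y axis from 0) of each of the 10 genes in every library, by group; points are libraries, horizontal bars group means and whiskers SD (n = 4, and 3 for Pa, which comes from a separate table). SOX4 lies at 105.7 to 228.4 in M-BM and 120.1 to 130.4 in Lat, below all S-BM libraries, and SOX9 lies above all S-BM libraries in both groups.

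SOX4, on chromosome 6 (21593751 to 21598619, GRCh38.p14), had the largest change of the members tested. It stood at 146.1, 132.6, 105.7 and 228.4 in M-BM 1 to 4, at 125.4, 130.4, 120.1 and 127.6 in Lat 1 to 4, and at 574.1, 830.1, 437.7 and 457.2 in S-BM 1 to 4. Parental cells had 918.7, 934.1 and 1047. The groups M-BM and Lat did not overlap S-BM, which in turn lay below Pa, and Lat libraries were the closest to each other, with a coefficient of variation of 3.46% against 34.5% in M-BM. SOX4 fell 3.76-fold in M-BM against S-BM (log2 fold change −1.91, SE 0.22, 95% interval −2.38 to −1.45, limma adjusted p = 1.4e-05). It fell 4.39-fold in Lat against S-BM (−2.13, SE 0.22, −2.60 to −1.67, adjusted p = 2.98e-06). Both calls held in every alternative run, with log2 fold changes of −2.22 to −1.72 and −2.45 to −1.94.

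SOX9, which directs chondrocyte and duct progenitor programs in development and lies on chromosome 17 (72121020 to 72126416), moved the other way. Its values were 177, 164.2, 245 and 198.3 in M-BM 1 to 4, 217, 224.4, 247 and 187.8 in Lat 1 to 4, and 121.3, 116.8, 112.6 and 120.8 in S-BM 1 to 4. In Pa it was at 101.2, 106.7 and 103. No M-BM or Lat library overlapped S-BM, and the S-BM libraries sat narrowly above those of Pa. SOX9 rose 1.64-fold in M-BM (log2 fold change 0.71, SE 0.12, limma adjusted p = 0.000248) and 1.84-fold in Lat (0.88, SE 0.12, adjusted p = 2.95e-05), each against S-BM.

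Per unit of transcript length, the order of these SOX genes in M-BM and Lat was opposite to that in S-BM and Pa. Per kilobase of exon annotated in GENCODE 29, SOX9 stood at 41.7 to 62.3 in M-BM and SOX4 at 18.1 to 39.0, while in Lat SOX9 stood at 47.7 to 62.8 and SOX4 at 20.5 to 22.3. In S-BM the per-kilobase level of SOX9 was 28.6 to 30.8 and that of SOX4 74.8 to 141.8. The ratio of SOX9 to SOX4 on this scale was 2.1 ± 0.936 in M-BM, 2.6 ± 0.357 in Lat, 0.325 ± 0.0845 in S-BM (SD, n = 4 each) and 0.16 ± 0.0122 in Pa (SD, n = 3). SOX9 exceeded SOX4 in 4 of 4 M-BM and 4 of 4 Lat libraries, and in 0 of 4 S-BM and 0 of 3 Pa libraries. Which gene models the deposited counts used is not given in the sources used here, so the lengths, and with them the point where the ratio crosses 1, are approximate. A change of length would scale all groups alike.

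SOX2, a pluripotency and neural progenitor factor on chromosome 3 (181711925 to 181714436), stayed below the filter. It was at 0.246, 1.27, 0.195 and 0.666 in M-BM 1 to 4, at 0.411, 0.498, 0.155 and 0.488 in Lat 1 to 4, and at 2.62, 11.4, 2.55 and 2.62 in S-BM 1 to 4. The reads behind these values were 4 to 28 in M-BM, 3 to 9 in Lat and 34 to 226 in S-BM. Parental cells held 26.9, 29.5 and 34.8, from 407 to 637 reads. Every M-BM and Lat library lay below every S-BM library, and every S-BM library below every Pa library, with S-BM 2 far above the other S-BM libraries. The mean was 51.3-fold lower in M-BM than in Pa, 78.3-fold lower in Lat and 6.32-fold lower in S-BM (11.7-fold without S-BM 2), as ratios of levels across separately normalized tables. Without M-BM 2 the M-BM mean was 82.4-fold lower than in Pa. Against S-BM the mean was 8.11-fold lower in M-BM (13.0-fold without M-BM 2) and 12.4-fold lower in Lat, and 4.38-fold and 6.69-fold lower without S-BM 2. With no filter on low values, the log2 difference of (value + 1) from S-BM was −1.67 in M-BM (SE 0.36, limma adjusted p = 0.00333) and −1.83 in Lat (SE 0.36, adjusted p = 0.0014). The added 1 shrinks differences at such levels, and edgeR on recovered reads gave −2.98 (adjusted p = 0.000816) and −3.62 (adjusted p = 0.000208). Leaving out S-BM 2, an alternative added after its values were seen, gave −1.22 (limma adjusted p = 0.00116) and −1.38 (adjusted p = 0.000378). The host transcript SOX2-OT, on the same strand around SOX2, was at 0.209 or less in every library.

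**Figure D2:**
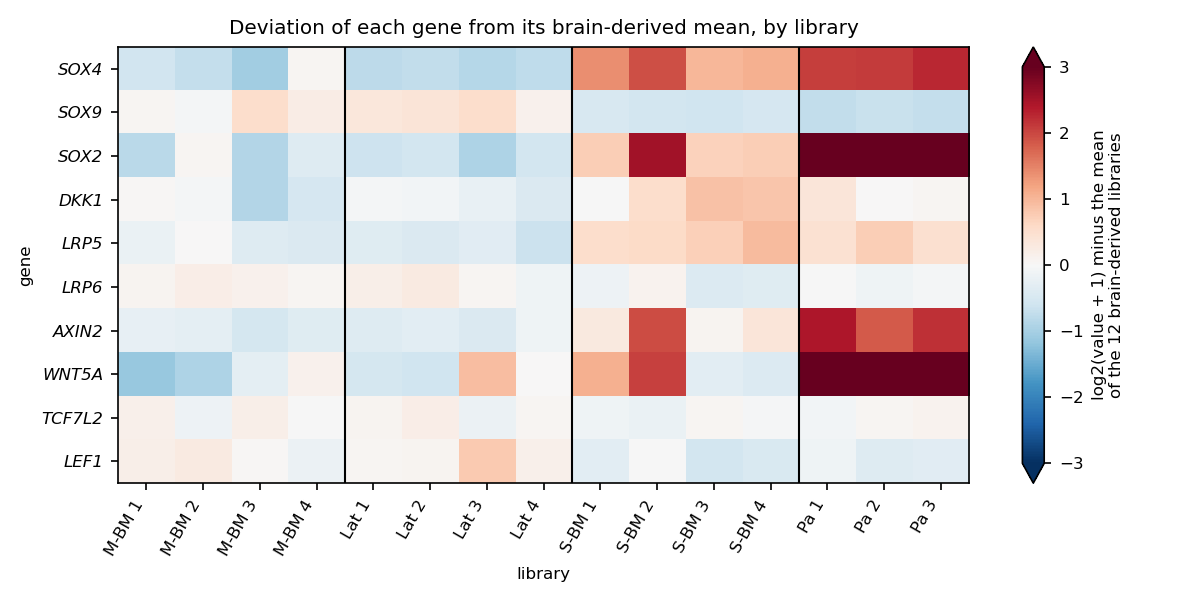
Deviation of log2(value + 1) from each gene's mean over the 12 brain-derived libraries, by library (columns) and gene (rows); red is above the mean, blue below, and the scale ends at 3. SOX2 and WNT5A run past the scale in all 3 Pa libraries, and S-BM 2 is the highest brain-derived library for SOX2, AXIN2 and WNT5A.

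DKK1, the secreted inhibitor, on chromosome 10 (52314281 to 52317657), was lower in the latent and metachronous groups than in the synchronous one. It stood at 141.3, 131.9, 74.7 and 96.2 in M-BM 1 to 4, at 132.2, 130.7, 117.7 and 102.3 in Lat 1 to 4, and at 135.7, 199, 254.1 and 246.2 in S-BM 1 to 4. In Pa it was at 177.5, 138.3 and 144.1. S-BM 3 and S-BM 4 were the highest of all 15 libraries, whereas S-BM 1 lay inside the M-BM range and just above Lat. DKK1 fell 1.88-fold in M-BM (log2 fold change −0.91, SE 0.21, limma adjusted p = 0.00282) and 1.68-fold in Lat (−0.75, SE 0.21, adjusted p = 0.00767) against S-BM. Both calls ended when S-BM 3 and S-BM 4, the libraries with low ERBB2, were left out: −0.61 with limma adjusted p = 0.0509 for M-BM and −0.45 with adjusted p = 0.125 for Lat. The part of the low ERBB2 state in the DKK1 result was not tested. DKK1 overlaps exons of PRKG1-AS1, on the other strand, which was at 5.02 or less in every library. GENCODE 29 also places antisense exons over TCF7L2, LEF1 and SOX4. The kit does not mark strand, so reads of a gene and its antisense partner cannot be told apart.

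LRP5 and LRP6, the coreceptors that DKK1 binds, moved in opposite directions. LRP5, on chromosome 11 (68298412 to 68449275), stood at 24, 28, 20.8 and 20.1 in M-BM 1 to 4, at 21.1, 20.3, 21.7 and 17.3 in Lat 1 to 4, at 40.4, 41.5, 45.6 and 53.9 in S-BM 1 to 4, and at 38.2, 46.6 and 38.9 in Pa. Neither M-BM nor Lat overlapped S-BM or Pa, while S-BM and Pa overlapped each other. It fell 1.92-fold in M-BM (log2 fold change −0.94, SE 0.13, limma adjusted p = 4.89e-05) and 2.19-fold in Lat (−1.13, SE 0.13, adjusted p = 6.26e-06) against S-BM, in every alternative run.

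LRP6, on chromosome 12 (12116025 to 12267044), differed far less. Its values were 51.7, 55.9, 53.3 and 50.8 in M-BM 1 to 4, 55.8, 59.1, 51.2 and 45.0 in Lat 1 to 4, 43.7, 52.6, 36.7 and 37.9 in S-BM 1 to 4, and 48.5, 44.5 and 47.1 in Pa. All groups overlapped except that M-BM lay just above Pa. LRP6 rose 1.25-fold in M-BM (log2 fold change 0.32, SE 0.12, limma adjusted p = 0.0366) and 1.24-fold in Lat (0.31, SE 0.12, adjusted p = 0.0374), narrowly past the threshold. The calls ended in 10 of 27 alternatives each. Without S-BM 3 and S-BM 4 the log2 fold changes were 0.14 (limma adjusted p = 0.386) in M-BM and 0.13 (adjusted p = 0.411) in Lat. They also ended on leaving out S-BM 1 (limma adjusted p = 0.0517 for M-BM and 0.052 for Lat), S-BM 3 (0.112 and 0.115) or S-BM 4 (0.102 and 0.105). Leaving out M-BM 1, 2 or 3 ended the M-BM call (0.0548, 0.0806 and 0.0725), and leaving out Lat 1, 2 or 3 ended the Lat call (0.0945, 0.113 and 0.0515). Per kilobase of GENCODE exon, the ratio of LRP6 to LRP5 was 1.19 ± 0.143 in M-BM, 1.35 ± 0.118 in Lat, 0.496 ± 0.133 in S-BM (SD, n = 4 each) and 0.59 ± 0.0857 in Pa (SD, n = 3). That ratio was above 1 in 4 of 4 M-BM and 4 of 4 Lat libraries and in 0 of 4 S-BM and 0 of 3 Pa libraries, with the same limit on exon length.

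**Figure D3:**
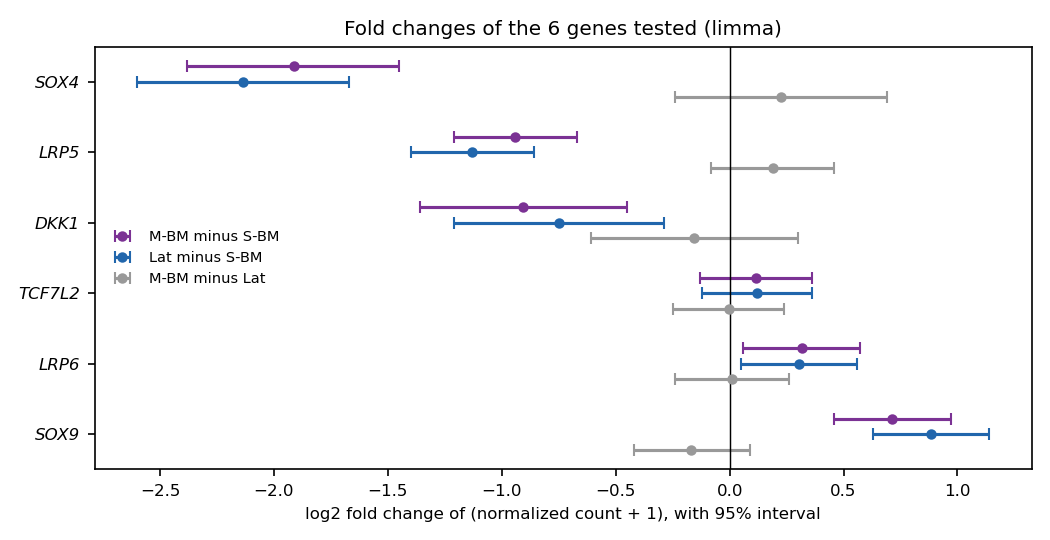
Log2 fold change of (normalized count + 1) with its 95% interval from limma, for the 6 members tested (rows), in purple for M-BM minus S-BM, in blue for Lat minus S-BM and in grey for M-BM minus Lat. SOX4 lies at −1.91 and −2.13 against S-BM, SOX9 at 0.71 and 0.88, and all intervals of M-BM minus Lat include 0.

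WNT5A, a ligand best known for signalling without beta-catenin, on chromosome 3 (55465715 to 55505263), separated all brain-derived libraries from the parental line. It was at 0.345, 0.542, 1.41 and 2.24 in M-BM 1 to 4, at 1.03, 0.941, 4.61 and 1.95 in Lat 1 to 4, and at 5.13, 11.2, 1.35 and 1.22 in S-BM 1 to 4. Pa libraries stood at 53.3, 56.6 and 56.5, and the lowest of them was 4.75 times the highest brain-derived library, S-BM 2. The mean level was 49-fold lower in M-BM, 26-fold lower in Lat (42.4-fold without Lat 3) and 11.7-fold lower in S-BM (21.6-fold without S-BM 2) than in Pa, from separately normalized tables. Within the brain-derived libraries the groups overlapped. With no filter, the log2 difference from S-BM did not pass in M-BM (−1.15, SE 0.53, limma adjusted p = 0.119) or in Lat (−0.65, SE 0.53, adjusted p = 0.379). On recovered reads, edgeR called M-BM (−2.05, adjusted p = 0.0301) but not Lat (−1.14, adjusted p = 0.197), and M-BM against Lat did not pass (−0.91, adjusted p = 0.74). S-BM 2 held 222 of the 351 S-BM reads. Without it, limma with no filter gave −0.66 in M-BM (adjusted p = 0.337) and −0.16 in Lat (adjusted p = 0.84). The edgeR call was not rerun without S-BM 2.

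AXIN2, the target gene that reports beta-catenin activity and feeds back on it, on chromosome 17 (65528563 to 65561648), was low everywhere. It stood at 0.492, 0.452, 0.243 and 0.38 in M-BM 1 to 4 and at 0.359, 0.443, 0.311 and 0.628 in Lat 1 to 4, from 5 to 10 reads in each of these libraries. S-BM 1 to 4 had 1.2, 5.97, 0.9 and 1.28, and Pa 8.6, 5.37 and 7.21. No M-BM or Lat library reached any S-BM library, and of the S-BM libraries only S-BM 2 entered the range of Pa. AXIN2 was 5.96-fold lower in M-BM and 5.37-fold lower in Lat than in S-BM as a ratio of means, and 2.87-fold and 2.59-fold lower without S-BM 2. With no filter it passed in M-BM (log2 difference −1.04, SE 0.32, limma adjusted p = 0.022) and in Lat (−0.997, SE 0.32, adjusted p = 0.0231), and edgeR on recovered reads also called both (adjusted p = 0.00158 and 0.0019). Leaving out S-BM 2 kept both calls in limma at smaller differences, −0.61 in M-BM (adjusted p = 0.000961) and −0.57 in Lat (adjusted p = 0.000967). Leaving out Lat 3 ended the call in Lat (−0.95, limma adjusted p = 0.064) and not that in M-BM (adjusted p = 0.0351). An annotated coding gene on the same strand, AC004805.1, shares exons with AXIN2, so its reads are uncertain.

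TCF7L2, on chromosome 10 (112950247 to 113167678), and LEF1, on chromosome 4 (108047548 to 108168932), encode DNA-binding partners of beta-catenin and stood at very different levels. TCF7L2 ranged from 20.9 to 26.3 in M-BM, 20.5 to 26.9 in Lat, 20.1 to 24.4 in S-BM and 21.8 to 25.1 in Pa. All groups overlapped, and the log2 fold change from S-BM was 0.11 (95% interval −0.13 to 0.36, limma adjusted p = 0.415) in M-BM and 0.12 (−0.12 to 0.36, adjusted p = 0.383) in Lat. LEF1 came from few reads: 6 to 17 per library in M-BM, 9 to 29 in Lat, 0 to 9 in S-BM and 2 to 5 in Pa. Its values were 0.285 to 0.768 in M-BM, 0.514 to 1.5 in Lat, 0 to 0.455 in S-BM and 0.125 to 0.331 in Pa. S-BM 3 was at 0, where 3 reads would give 0.225. Lat did not overlap S-BM, and with no filter LEF1 was called in Lat (log2 difference 0.60, SE 0.17, limma adjusted p = 0.0115) but not in M-BM (0.40, SE 0.17, adjusted p = 0.0791). M-BM against Lat did not pass for LEF1 (−0.20, adjusted p = 0.803). Without Lat 3 the call in Lat held at 0.43 (limma adjusted p = 0.0254) and M-BM was called too (0.40, adjusted p = 0.0254); without S-BM 2 both were called, at 0.51 in M-BM (adjusted p = 0.041) and 0.71 in Lat (adjusted p = 0.00753).

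No member passed the test between M-BM and Lat. In M-BM against Lat, 0 of the 6 tested members passed limma, 0 had an unadjusted p under 0.05, and edgeR and DESeq2 called 0 as well. Of all genes tested, limma called 0.145%, and 10.9% had an unadjusted p under 0.05. The smallest adjusted p was 0.63, for LRP5 (log2 fold change 0.19, 95% interval −0.08 to 0.46). The intervals leave room for differences: they ran from −0.24 to 0.69 for SOX4, from −0.42 to 0.09 for SOX9 and from −0.61 to 0.30 for DKK1. All 10 members overlapped between M-BM and Lat, where 3.85% of genes tested lay wholly higher and 3.45% wholly lower in M-BM. Within M-BM the library M-BM 4 was highest for SOX4 and WNT5A.

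Against the parental line, 4 members did not overlap in any brain-derived group, and LRP5 and AXIN2 were separate from it in M-BM and Lat only. SOX2, SOX4 and WNT5A lay lower in all 12 brain-derived libraries than in any Pa library, 3 of the 9 members that reached a value of 1 in 3 or more of the 15 libraries, where 13.9% of all such genes did; SOX9 lay higher in all 12, where 12.5% of genes did. WNT5A alone of the members was at least 4-fold below Pa in all 12, as were 0.242% of genes. M-BM and Lat each had 4 members at least 4-fold below Pa (SOX2, SOX4, WNT5A and AXIN2), where 2.1% and 3.59% of genes did so, and S-BM had 1 (WNT5A), where 0.575% were. By non-overlap alone, 5 members were lower and 2 higher in M-BM, where 32.9% and 32.8% of genes were, 6 lower and 2 higher in Lat (35.2% and 34.5%), where the higher ones are SOX9 and LEF1, itself too low to enter these shares, and 3 lower and 1 higher in S-BM (20.4% and 20.2%). AXIN2 and LRP5 overlapped Pa in S-BM, and DKK1 lay wholly below Pa in Lat. TCF7L2 overlapped Pa in all 3 groups.

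The rest of the pathway was read from 9 lists of 143 genes, of which 126 were in the tables and 59 reached the filter. In M-BM against S-BM, 9 of the 59 were higher and 18 lower, and in Lat 10 were higher and 20 lower. These 45.8% and 50.8% are below the 52.7% and 59.7% of all genes tested, and the median log2 fold changes were −0.11 and −0.07 against 0.01 and 0.01 over all genes. In M-BM against Lat 0 of the 59 passed. For these lists, rose and fell are relative to S-BM and do not tell which group departed from Pa. The lists were chosen with earlier results of these data known.

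**Figure D4:**
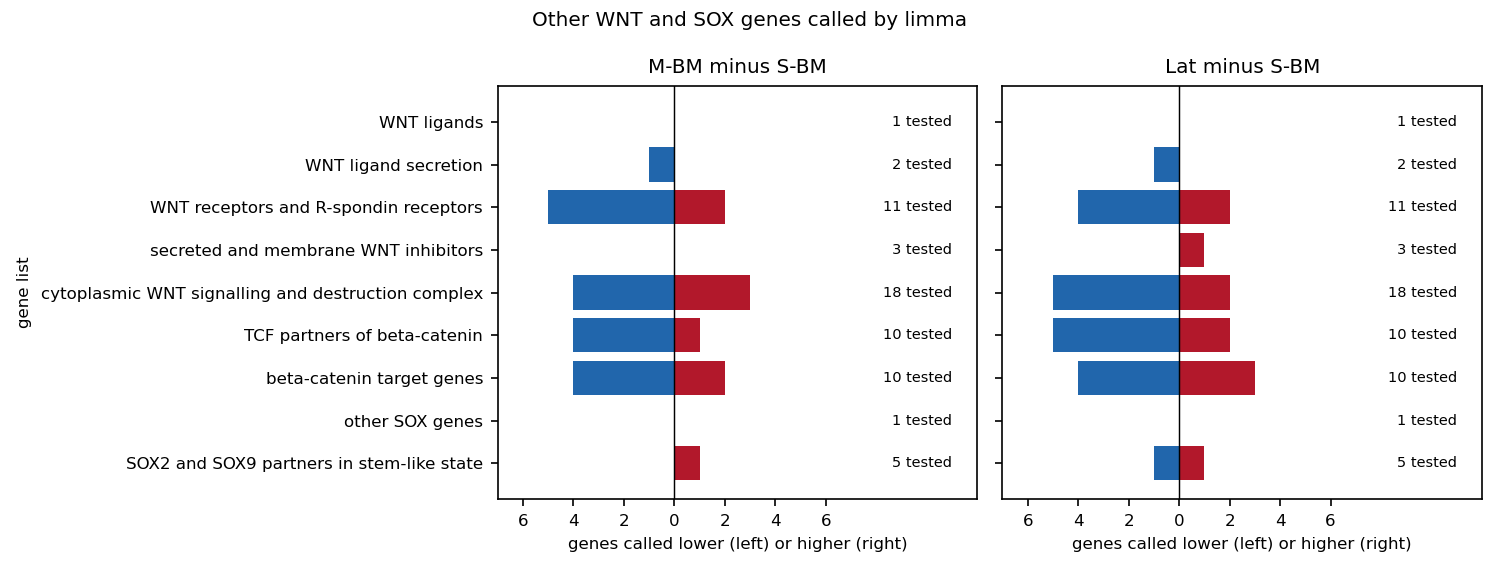
Number of genes of each pathway list that limma called lower (left of 0) or higher (right of 0) in M-BM minus S-BM and in Lat minus S-BM, with the number tested at the right. Receptors had 5 lower and 2 higher of 11 in M-BM, and 4 lower and 2 higher of 11 in Lat. Over all genes tested, 52.7% were called in M-BM and 59.7% in Lat.

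Ligands were mostly low: of 15 in the tables only WNT7B was tested, at 36.2 to 53.6 in M-BM, 36.4 to 46.0 in Lat and 41.6 to 54.6 in S-BM, and it did not pass. WLS, which carries WNT proteins to the cell surface, fell 3.21-fold in M-BM (19.5 ± 6.47 against 63 ± 10.3 in S-BM, limma adjusted p = 2.53e-05) and 4.66-fold in Lat (12.7 ± 1.8, adjusted p = 1.5e-06; SD, n = 4 each). Among 11 receptors, the R-spondin receptor LGR4 fell 1.9-fold in M-BM and 1.91-fold in Lat, FZD5 1.7-fold and 1.75-fold, and FZD3 1.62-fold and 1.75-fold. ROR1, a receptor for WNT5A, rose 2.26-fold in M-BM (11.6 ± 0.762 against 4.81 ± 1.76 in S-BM, limma adjusted p = 0.000274) and 2.76-fold in Lat (14.4 ± 1.2, adjusted p = 3.1e-05; SD, n = 4 each). FZD6 rose 1.4-fold in M-BM and 1.25-fold in Lat.

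Of the inhibitors other than DKK1, 3 of 16 in the tables reached the filter. In M-BM 0 passed, and in Lat the ubiquitin ligase RNF43 rose 1.4-fold (limma adjusted p = 0.044). RNF43 was at 30.75 in Lat 3 and at 16.32 to 19.55 in Lat 1, 2 and 4, overlapping S-BM (12.52 to 16.85). In Pa it was at 22.23 to 27.84. SHISA2 of this list was below the filter and not tested, and is named after its values were seen. It was at 4.71 to 12.1 in M-BM and 6.11 to 12.2 in Lat, against 0.873 to 1.62 in S-BM and 0.0625 to 0.218 in Pa. APCDD1 and KREMEN2, also untested, lay the other way, with every M-BM and Lat library below every S-BM library. Of all genes tested, 22.8% in M-BM and 27.6% in Lat lay wholly below S-BM. Among 18 cytoplasmic components, 3 rose and 4 fell in M-BM, and 2 rose and 5 fell in Lat. These counts are below the share over all genes tested, which was 52.7% in M-BM and 59.7% in Lat. CTNNB1, which encodes beta-catenin, fell 1.31-fold in M-BM (729.5 ± 113.5 against 954 ± 118.8 in S-BM, limma adjusted p = 0.0149) and 1.54-fold in Lat (617.8 ± 28.4, adjusted p = 0.000624; SD, n = 4 each). CTNNB1 was at 777 to 816 in Pa, inside the M-BM range of 563.1 to 818.3. AMER1, a partner of APC, fell 1.7-fold and 1.8-fold, and FRAT2, a GSK3-binding protein, 1.42-fold and 1.72-fold. AMER1 averaged 26.9 in Pa, near M-BM (27.8) and Lat (26.3), while S-BM averaged 47.7. FRAT2 averaged 30.1 in Pa, near S-BM (28.9) and above M-BM (20.2) and Lat (16.4). The kinase gene CSNK1E rose 1.25-fold in M-BM and 1.27-fold in Lat, the tankyrase gene TNKS 1.22-fold in both, and GSK3A 1.3-fold in M-BM, where Lat did not pass (1.09-fold, limma adjusted p = 0.51).

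Among TCF partners, 1 of 10 rose and 4 fell in M-BM, and 2 rose and 5 fell in Lat. With 52.7% of all genes tested called in M-BM and 59.7% in Lat, 10 genes are too few to set apart. The corepressor TLE4 rose 2.25-fold in Lat (limma adjusted p = 0.000484) and did not pass in M-BM (1.44-fold, adjusted p = 0.0589), and the chromatin remodeller CHD8, which restrains beta-catenin, fell 1.41-fold in M-BM and 1.46-fold in Lat. The acetyltransferase CREBBP fell 1.38-fold in M-BM and 1.27-fold in Lat, and the repressor HBP1 1.32-fold and 1.44-fold. The corepressor CTBP1 rose 1.39-fold in M-BM and did not pass in Lat (1.34-fold, limma adjusted p = 0.0521). The coactivator BCL9L rose 1.36-fold and its relative BCL9 fell 1.51-fold in Lat, while in M-BM neither passed (limma adjusted p = 0.692 and 0.0773). BCL9L was at 184.5 in Lat 3, against 111 to 123 in Lat 1, 2 and 4. BCL9 overlapped between Lat (22.3 to 34.3) and S-BM (30.5 to 63.8). Genes known as beta-catenin targets went both ways, with 2 of 10 higher and 4 lower in M-BM, and 3 higher and 4 lower in Lat. Again 10 genes are too few to set apart from the 52.7% and 59.7% called over all genes. Cyclin D1 (CCND1) rose 1.88-fold in M-BM (3122 ± 326.3 against 1684 ± 371 in S-BM, limma adjusted p = 0.000104) and 1.9-fold in Lat (3155 ± 119.4, adjusted p = 5.76e-05; SD, n = 4 each), and MYC rose 1.57-fold and 1.7-fold. The protease gene MMP7 fell 3.55-fold in M-BM and 4.93-fold in Lat, and the guidance receptor EPHB2 3.26-fold and 4.19-fold. PPARD, a nuclear receptor gene, fell 3.05-fold in M-BM and 3.71-fold in Lat, and EPHB3 2.49-fold and 3.83-fold. Many other inputs also control these genes, so their levels are given as measured and not as a readout of WNT activity.

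Of 10 other SOX genes in the tables, only SOX13 reached the filter, at 42.6 to 52.8 in M-BM, 36.2 to 46.7 in Lat and 35.7 to 49.2 in S-BM, and it did not pass. Of 5 tested genes linked to stem-like states, KLF4 rose 1.28-fold in M-BM (limma adjusted p = 0.00728) and 1.61-fold in Lat (adjusted p = 4.3e-05), and ID1 fell 1.43-fold in Lat (adjusted p = 0.0217) and did not pass in M-BM (adjusted p = 0.315). KLF4 averaged 47.2 in Pa, between M-BM (43.7) and Lat (55.2) and above S-BM (33.9). ID1 averaged 69 in Pa, above S-BM (41.8), M-BM (35.8) and Lat (29.5).

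The genes whose pattern was most like that of a member were ranked by Pearson's r of log2(value + 1) over the 12 brain-derived libraries, which share the group differences and scaling, among 9645 genes. For SOX4 they were the surface glycoprotein gene CD24 (r = 0.998), the chromatin protein gene HMGB3 (0.993) and the NOTCH coactivator MAML2 (0.992). CD24 averaged 796.7 in M-BM, 680 in Lat and 2516 in S-BM, against 3778 in Pa; its reads may be split with near-identical copies, so its level is uncertain. For SOX9 they were SF3A1 (0.985), SRFBP1 (0.985) and XRCC4 (0.979), and for DKK1 ZNF607 (0.968), the thyroid hormone receptor THRB (0.942) and WRB (0.93). The likeness for DKK1 was the weakest of the 3.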

How the data were processed

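Total RNA of cultured cells was made into libraries with an RNeasy kit and TruSeq RNA v2, which does not mark the strand, per the labels' protocols. Bowtie 0.12.2 and GRCh38 are named in the submitters' processing notes; for the counter, annotation and scaling method, no name is given in the sources used here. Values deposited by the authors are a signal (normalized counts, 1 per gene and library) scaled by 1 factor per library. Every value was a whole multiple of 1 step per library within 0.05 reads (100% of values), so reads were recovered; they sum to 13253870 to 21843860 reads per library. No value column went unused. Of the 19845 names, 27 are dates made by a spreadsheet.

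M-BM, Lat and S-BM were fitted together with limma 3.58.1 (R 4.3.3) on log2(value + 1), with 3 group means, a variance trend, two-sided tests and Benjamini-Hochberg adjustment over 9646 genes. Of the 10 members, 4 (SOX2, AXIN2, WNT5A and LEF1) fell below the filter and were tested only under alternatives. Pa was not tested. Alternatives were other pseudocounts, filters and normalizations, edgeR 4.0.16 and DESeq2 1.42.0 on recovered reads, a replicate block, pairs of groups, and left-out libraries; 4 fits, edgeR with no filter and the lower filters with S-BM 2 or Lat 3 left out, were added after the data were seen. On recovered reads edgeR called 5072, 5748 and 12 genes in M-BM against S-BM, Lat against S-BM and M-BM against Lat, where limma called 5084, 5754 and 14. The limma code was tested on simulated data with few changed genes and independent counts, unlike these data. That test therefore does not vouch for the calls made here. Residuals of same-numbered libraries of different groups correlated at −0.272 to 0.319, with 4 of 12 pairs above 0.1. Those of differently numbered libraries correlated at −0.305 to 0.322, with 7 of 36 pairs above 0.1. The 2 ranges were alike, so numbers were not taken as pairs. Genes were named by a rule: all members, up to 3 called genes per pathway list and direction, and the 3 most like DKK1, SOX4 and SOX9. Members, lists and the rule were chosen with earlier results of these data known.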

Additional observations from a re-analysis of the deposited data

Results flagged for a closer look

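In 30 groups of 4 libraries (10 members in M-BM, Lat and S-BM), a library stood far from the other 3 in 3 cases. By chance about 1 group in every 20 would be flagged, and 3 of 30 are too few to set apart from that rate. The SOX2 and AXIN2 cases fall on the same library, S-BM 2, so they are not independent. SOX2 reached 11.44 in S-BM 2, while S-BM 1, 3 and 4 had 2.55 to 2.62. AXIN2 was at 5.971 in the same library, against 0.9 to 1.28. LEF1 was at 1.501 in Lat 3, against 0.514 to 0.628 in the other Lat libraries, from 29 reads.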

How the results depend on the processing

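Among the members tested, SOX4, SOX9 and LRP5 kept their direction and their call against S-BM in all 27 alternatives, DKK1 in all but 1 and LRP6 in all but 10 in each comparison; TCF7L2 was called in none. No called value changed sign. Members called in Lat against S-BM numbered 8 of 10 with no filter (41% of all genes), 8 of 10 with no filter and S-BM 2 left out (38.6%), and 3 of 6 without S-BM 3 and S-BM 4 (53%). M-BM against S-BM had 8 of 10 (33%) and 3 of 6 (45.7%) under the last 2 of these; both ran from 4 to 5 when 1 library was left out. In M-BM against Lat the count of members stayed at 0, while genes called, 14 in the fit as reported, numbered 26 with the filter at 1, 24 with no filter, 5 with only these groups fitted, 141 with DESeq2, 33 with the filter at 1 and S-BM 2 left out, 39 with no filter and Lat 3 left out, 22 with edgeR and no filter, and 3 to 30 with 1 library left out; the cause was not tested. Genes called with 1 library left out ran from 5176 to 5789 in Lat and from 4383 to 5312 in M-BM against S-BM. With the replicate block 5675, 5002 and 13 genes were called in Lat against S-BM, M-BM against S-BM and M-BM against Lat, and no member's call changed. Depth limits LEF1, AXIN2 and SOX2, which rest on 0 to 29 reads in many libraries.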

Other observations

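Several WNT genes below the filter, chosen after their values were seen and not tested here, had ranges that did not overlap between at least 1 pair of groups. Over all genes tested, 23.5% and 22.8% lay wholly above and below S-BM in M-BM, and 26.9% and 27.6% in Lat. Between M-BM and Lat, 3.85% lay wholly higher and 3.45% wholly lower in M-BM. Genes picked in this way are not set apart from those shares. NKD1, an inducible antagonist of Dishevelled, was at 0.739, 1.18, 0.876 and 0.19 in M-BM 1 to 4 and at 1.23 to 1.55 in Lat. It was at 0 to 0.202 in S-BM and 0.25 to 0.662 in Pa. Of the M-BM and Lat libraries, M-BM 4 alone lay inside the S-BM range. Pa lay above S-BM and inside the M-BM range. APCDD1, a membrane inhibitor of WNT signalling, was at 0 in all 4 Lat libraries and at 0 to 0.0476 in M-BM, against 0.798 to 1.67 in S-BM and 0.437 to 0.562 in Pa. WNT4 ranged from 0.936 to 1.81 in M-BM and from 0.719 to 1.53 in Lat, against 2.39 to 6.3 in S-BM and 6.75 to 10.05 in Pa. TCF7, a relative of LEF1, was at 2.9 to 3.93 in M-BM, above 1.33 to 2.65 in Lat, which overlapped the 0.513 to 2.27 of S-BM and the 1.32 to 1.64 of Pa.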
